A study of Mus musculus with 2 samples.

Results

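The 45 keratin genes of this report were chosen by name alone: each row of the 2 count matrices whose symbol is Krt followed by a number, with at least 10 UMIs over all cells. A UMI (unique molecular identifier) marks 1 captured RNA molecule. The rule found 49 such rows among 33696 genes and kept 45. The 4 left out were Krt77 with 7 UMIs, Krt76 and Krt88 with 2 each and Krt9 with 1, and the lowest kept were Krt24 with 10, Krt13 with 11 and Krt42 with 12. Keratins whose symbol ends in a letter (Krt6a, Krt6b, Krt33a, Krt33b) fell outside the rule and are given beside the members where they touch a result.

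Both libraries came from the middle phalanx (P2) of hindlimb digits 2 and 4 of ICR mice, amputated at postnatal day 3 (PN3), given a microcarrier bead at PN7 and harvested 24 h later at PN8. The beads carried FGF8, a secreted fibroblast growth factor, at 500 ng/µl in the one library and 0.1% bovine serum albumin (BSA) in the other. Each library was a single pool of 20 digits from 5 mice of both sexes, so there was no replicate and no test of any difference between FGF8 and BSA could be made. By the paper's account, amputation through P2 takes away the whole nail organ, so the design left no nail organ as a source. The epithelium around the stump was peeled off before the tissue was dissociated, so the epithelial cells described here are those that stayed with the dissected tissue. Where a name below holds the word nail, it comes from the lists of markers and roles. Which epithelium each cell came from was not tested.

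Keratins are the intermediate filament proteins of epithelial cells. A filament is built from pairs of 1 acidic (type I) and 1 basic (type II) chain, and epithelial layers are known by the pairs they make. Krt5 and Krt14 mark the dividing basal layer, Krt1 and Krt10 replace them as cells move up to become epidermis, and Krt16 and Krt17 appear in wounded or fast-growing epithelium. Inside the hair follicle, Krt25 to Krt28 and Krt71 to Krt73 are made in the inner root sheath, the sleeve that moulds the growing hair, Krt75 in the companion layer around it, and the cysteine-rich chains of the Krt31 to Krt40 and Krt81 to Krt87 groups harden hair and nail. Krt8, Krt18, Krt19 and Krt7 are the keratins of simple, single-layered epithelia.

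The members lay in both keratin clusters of the mouse genome (GRCm39, GENCODE gene models). The 24 members on chromosome 11, all type I, lay at chr11:99123587-100160697. The 21 members on chromosome 15 lay at chr15:101245325-101940462 and were type II, except for Krt18, which is type I. Inner root sheath keratins and hair and nail keratins each lay together: of the members, only Krt25, Krt26, Krt27 and Krt28 fell in chr11:99206342-99265735, only Krt71, Krt72 and Krt73 in chr15:101642384-101710802, only 7 type I hair and nail keratins in chr11:99404940-99996471 and only 6 type II ones in chr15:101328919-101459102. The bases before the start of each gene were searched for the letters of 2 known promoter motifs. TATAAA, the letters of a strict TATA box, stood in the 50 bases before the start on the gene's strand in 16 of the 45 keratins (35.6%), against 3.20% of all protein-coding genes (696 of 21770). The share was 6 of 7 among inner root sheath keratins, 6 of 13 among hair and nail keratins and 0 of 3 among Krt5, Krt14 and Krt15. Those 50 bases are shown for the inner root sheath keratins and for Krt10 that lead the levels below, 5′ to 3′ on the gene's strand, with TATAAA in capitals.
Krt25 (chr11:99213778-99213827, minus strand): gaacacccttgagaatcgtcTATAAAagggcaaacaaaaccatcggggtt
Krt27 (chr11:99241931-99241980, minus strand): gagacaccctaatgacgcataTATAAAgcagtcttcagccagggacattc
Krt28 (chr11:99265736-99265785, minus strand): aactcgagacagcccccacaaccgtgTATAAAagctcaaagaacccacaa
Krt71 (chr15:101651545-101651594, minus strand): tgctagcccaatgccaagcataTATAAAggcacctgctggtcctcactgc
Krt73 (chr15:101710803-101710852, minus strand): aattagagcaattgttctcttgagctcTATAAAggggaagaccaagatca
Krt10 (chr11:99280196-99280245, minus strand): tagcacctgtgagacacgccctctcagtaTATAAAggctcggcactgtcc

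The letters CTTTGAA, a form of the motif read by LEF and TCF factors, were searched on both strands (TTCAAAG on the gene's strand is the same motif reversed) in the 250 bases before the start. They stood in 9 of the 13 hair and nail keratins and in 0 of the other 32 members, against 4.84% of all protein-coding genes (1053 of 21770). A match describes letters and shows no binding, and near-identical neighbours share sequence, so these genes are not independent. Both motifs and the roles were set after the data had been seen, so these matches are a description and give no independent support to the roles. The stretches around the motif are shown with the motif in capitals on the gene's strand. Krt34 also held CTTTGAA 240 bases before its start (chr11:99932599-99932630), a stretch not shown.
Krt39 (chr11:99412167-99412198, minus strand): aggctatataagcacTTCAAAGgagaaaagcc
Krt34 (chr11:99932492-99932528, minus strand): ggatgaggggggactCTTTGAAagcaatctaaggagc
Krt31 (chr11:99941600-99941627, minus strand): tgacttCTTTGAAgggctactgcagaac
Krt32 (chr11:99979321-99979350, minus strand): ggctggccCTTTGAAgatgtgtcttgatgc
Krt36 (chr11:99996695-99996721, minus strand): agactCTTTGAAgtggcaataaaattc
Krt87 (chr15:101337033-101337069, minus strand): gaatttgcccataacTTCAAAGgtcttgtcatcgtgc
Krt81 (chr15:101361855-101361891, minus strand): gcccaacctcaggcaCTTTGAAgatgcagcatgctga
Krt86 (chr15:101371147-101371183, plus strand): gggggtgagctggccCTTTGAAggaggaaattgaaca
Krt83 (chr15:101389548-101389584, minus strand): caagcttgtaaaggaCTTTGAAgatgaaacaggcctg

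The FGF8 library held 7249 barcodes and 124889213 UMIs and the BSA library 3703 barcodes and 67739460 UMIs. After the cell filter, 6715 and 3252 cells were left, of which 276 (4.11%, 95% interval 3.65 to 4.61) and 191 (5.87%, 5.09 to 6.74) fell in epithelial clusters, and other ways of calling them gave another order of the libraries, so no difference in this share is claimed. Epithelial cells were shallower in BSA, with a median of 3054 UMIs against 10234 in FGF8. Of the epithelial cells whose sex could be called from X- and Y-linked transcripts, 19.9% were female in FGF8 (35 of 176) and 72.1% in BSA (49 of 68). The libraries shared 6 barcodes, 1 of them epithelial. Clustering used no keratin gene, so that no class was defined by the genes measured here.

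Keratin transcripts were mostly those of epithelial cells. These cells were a few percent of each library and held 89.8% of the keratin UMIs of the kept cells in FGF8 and 93.7% in BSA. Keratins made up 2.49% of their UMIs in FGF8 (104525 UMIs) and 3.41% in BSA (71420 UMIs), a level 208 and 374 times that of all other cells. Levels below are UMIs of a gene per 1000000 UMIs of the cells named (CPM). Each UMI is 1 transcript counted at its 3′ end whatever the gene's length, so levels of different keratins share a scale. Intervals are exact 95% Poisson intervals of the summed UMIs or exact binomial intervals of shares, and they cover counting error only, not differences between animals or digits.

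The epithelial cells fell into 7 sub-clusters. The cells called basal epidermis-like (83 in FGF8, 13 in BSA) held all 10 basal markers, Itga6 among their leading genes, but also Lhx2 and all 8 markers of the outer root sheath and bulge. Their mean log2 fold over the other epithelial cells was 2.49 for basal, 1.63 for outer root sheath and bulge, 3.20 for macrophage and 3.70 for chondrocyte markers. The chondrocyte markers summed to 957 CPM in FGF8 and 24.7 CPM in BSA, and erythroid markers to 7653 and 156 CPM. The part of such RNA in the levels below was not tested. Suprabasal epidermis-like cells (30 and 15) held all 10 suprabasal markers, with 2 (Krtdap and Serpinb2) among their leading genes. Lor, also among these leading genes, is a granular and cornified marker. Against the other epithelial cells, the mean log2 fold was 2.31 for suprabasal, 3.49 for granular and cornified and 2.97 for fibroblast markers. Nail and hair matrix-like cells (35 and 19) were led by Psors1c2, Vsig8 and S100a3. The other 4 were not named and are called here by their leading genes. They were Slc39a8-led cells (55 and 28), Crym-led cells (14 and 12), Serpina3j-led cells (14 and 8) and cells of low UMI count led by Hba-a1 and Hbb-bs (45 and 96). The Serpina3j-led cells held all 7 sebaceous gland markers, at a mean log2 fold of 6.05, with none among their leading genes, by which names were given. This low-UMI group was 16.3% of epithelial cells in FGF8 and 50.3% in BSA, with erythroid markers summing to 173209 and 2561 CPM, and basal epidermis-like cells were 30.1% (24.7 to 35.9) and 6.81% (3.67 to 11.4). Values of the sub-clusters stand side by side below, since no sub-cluster held 50 cells in both libraries.

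**Figure D1:**
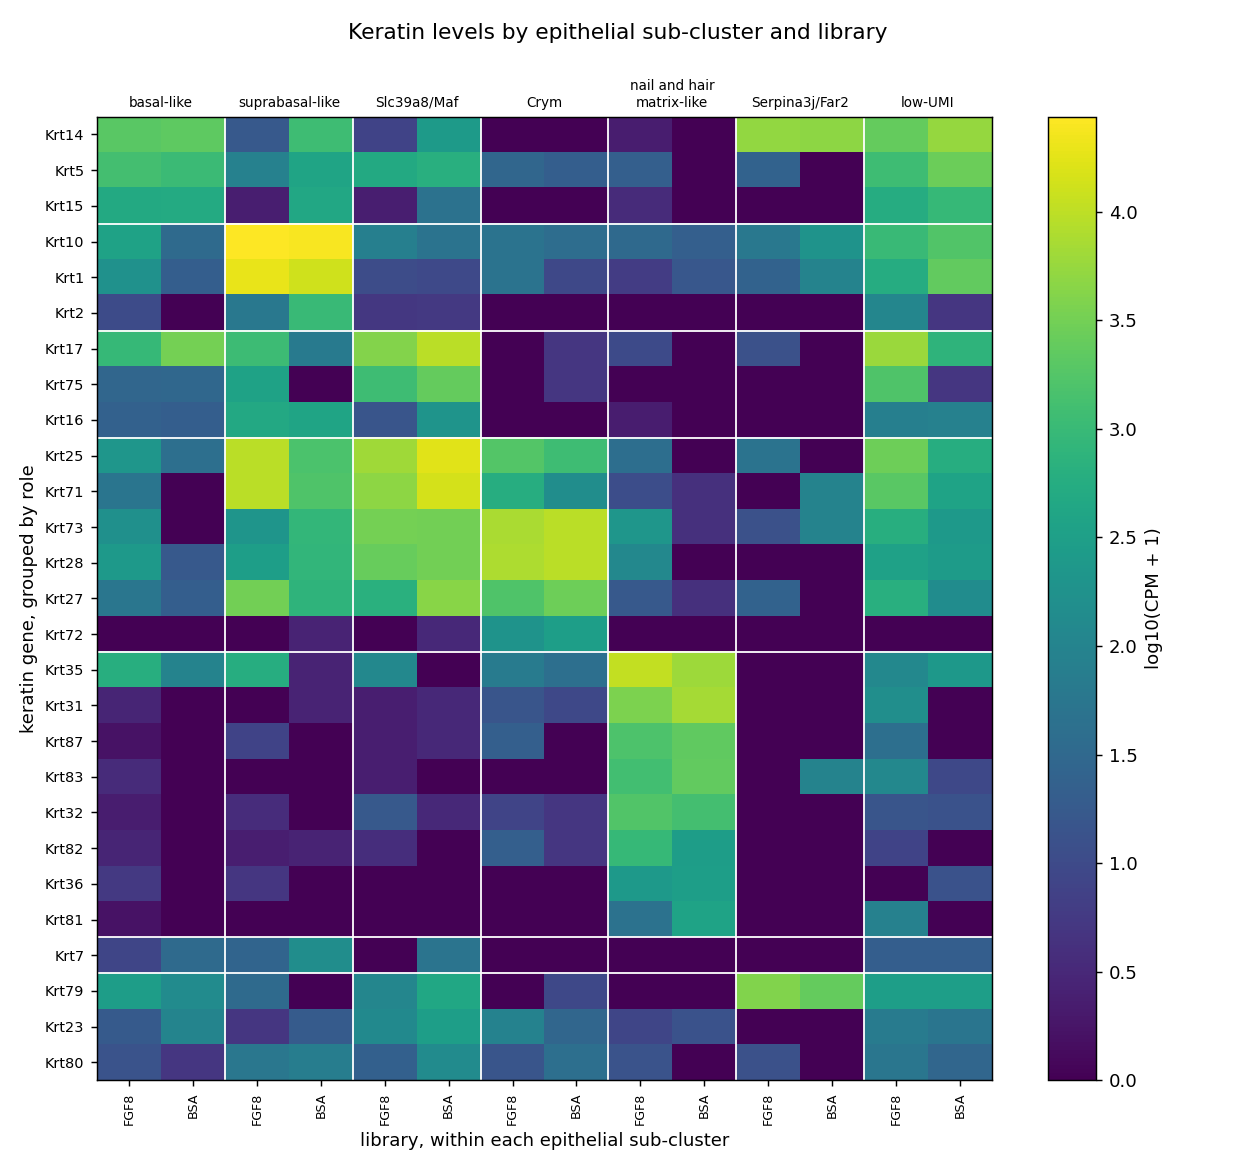
Levels of the 27 keratins with at least 100 epithelial UMIs (rows, grouped by role) in each epithelial sub-cluster of the FGF8 and BSA libraries (columns), as log10 of CPM + 1. Hair and nail keratins stand high in the nail and hair matrix-like columns, inner root sheath keratins in the Crym-led and Slc39a8-led columns and partly in the suprabasal ones, and Krt1 and Krt10 in the suprabasal epidermis-like columns of both libraries.

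The sub-clusters differed in the keratins they held, and 3 of them had nearly the same make-up in both libraries. Hair and nail keratins gave 97.6% (FGF8) and 99.7% (BSA) of the keratin UMIs of nail and hair matrix-like cells, and inner root sheath keratins 98.1% and 99.1% of those of Crym-led cells. Slc39a8-led cells were mixed, with 73.8% and 75.1% from inner root sheath keratins and 22.1% and 21.3% from Krt16, Krt17 and Krt75. In suprabasal epidermis-like cells Krt1, Krt2, Krt10 and Krt78 gave 64.9% and 82.6%, and inner root sheath keratins 31.3% and 11.7%. Basal epidermis-like cells drew 54.2% and 47.7% from Krt5, Krt14 and Krt15, and 14.2% and 41.6% from Krt16, Krt17 and Krt75. The low-UMI cells were least alike, with 19.9% in FGF8 and 55.2% in BSA from the 3 basal keratins. Of the 27 keratins with at least 100 epithelial UMIs, 17 were highest in the same sub-cluster in both libraries.

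**Figure D2:**
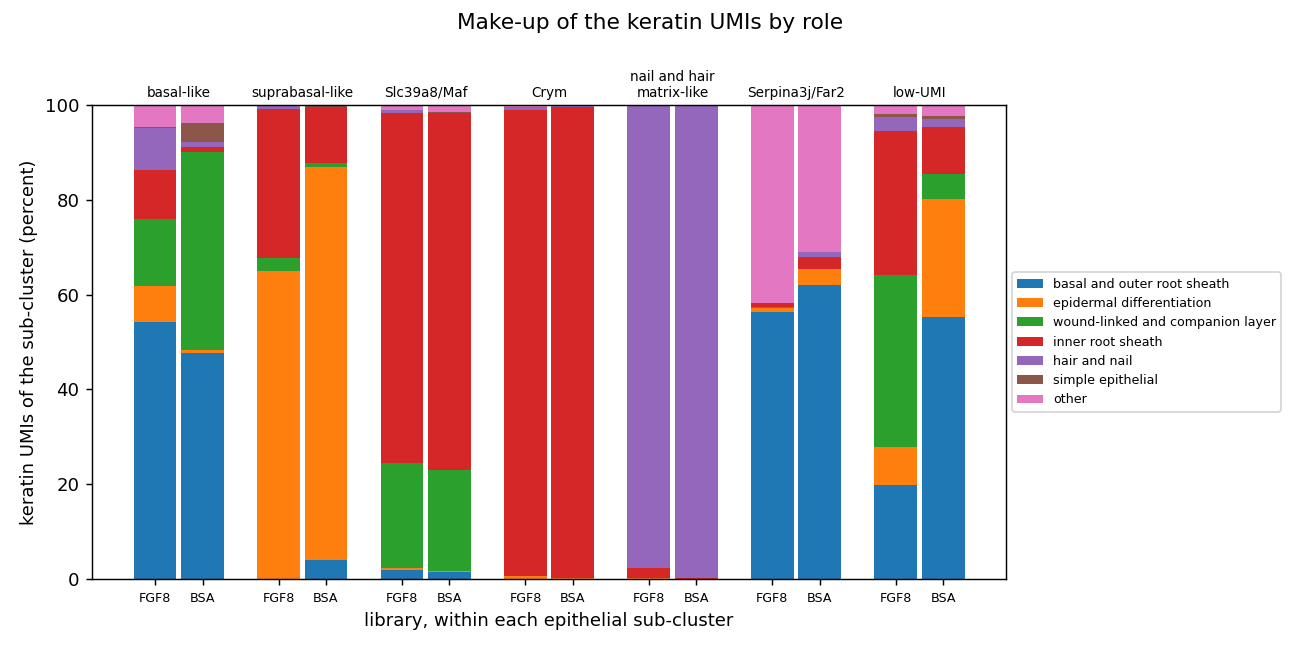
Share of keratin UMIs by role (stacked bars, percent, starting at 0) in each epithelial sub-cluster, with FGF8 and BSA side by side. Nail and hair matrix-like and Crym-led bars are filled almost whole by 1 role in both libraries, 97.6% and 99.7% hair and nail keratins in the former, while the Slc39a8-led, basal and low-UMI bars hold several.

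Among the basal keratins, Krt14, the type I partner of the basal layer, stood at 2042 CPM (1972 to 2114) in basal epidermis-like cells of FGF8 and 2158 CPM (1977 to 2350.4) in those of BSA. Its intervals overlapped between the libraries there, but 1 FGF8 cell held 1265 of the 3229 UMIs, and at finer clustering the group that took 73 of these 96 cells stood at 521 CPM in FGF8 and 1387 CPM in BSA. The level was higher in Serpina3j-led cells, at 5314 and 4917 CPM, and in the low-UMI cells it was 2499 CPM in FGF8 and 5370.1 CPM in BSA. Krt5, its type II partner, reached 1278 CPM (1223 to 1335) and 1064 CPM (939 to 1202) in basal epidermis-like cells, with UMIs in 72 of 83 and 10 of 13 of them. Krt15, a keratin of basal cells and of the hair follicle bulge, stood at 505 and 509.6 CPM in these cells. Nail and hair matrix-like cells lay at the other end, with 1 Krt14 UMI in FGF8 and 0 in BSA (interval 0 to 11.3 CPM).

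Of the differentiation keratins, Krt10 was the most abundant keratin of suprabasal epidermis-like cells. Its level was 27445 CPM (27067 to 27827) in FGF8 and 25294 CPM (24880.3 to 25713) in BSA, with UMIs in 25 of 30 and 14 of 15 cells. Krt1, its type II partner, stood at 19373 CPM in FGF8 and 13283 CPM in BSA, with UMIs in 20 of 30 and 9 of 15 cells. These levels rested on few cells: the top 5 cells held 70.0% of the Krt10 UMIs of this class in FGF8 and 97.5% in BSA. Krt2, a keratin of late upper-layer cells, differed most, with 44 UMIs (60.0 CPM) in FGF8 and 581 UMIs (1031 CPM) in BSA. A single BSA cell held 544 of those 581 UMIs. Krt78, with 15 and 39 UMIs here, was at 20.5 and 69.2 CPM.

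The suprabasal epidermis-like class also held cells of another make-up. Krt25 stood at 9521 CPM and Krt71 at 9474 CPM there in FGF8, and at 1540.4 and 1617 CPM in BSA, although both are inner root sheath keratins, and 5 cells held 99.9% or more of these UMIs in each library. The 7 fibroblast markers summed to 7757 and 7926 CPM in this class, against 1549 and 875 CPM in basal epidermis-like and 483 and 357 CPM in nail and hair matrix-like cells, and their part in the result was not tested. With finer clustering, 29 of its 45 cells formed a granular and cornified epidermis-like class with Krt10 at 41221 and 37660 CPM and Krt71 at 2.05 and 0 CPM. Of the others, 13 joined a group led by Mfap4, Clec3b and Cthrc1 with Krt71 at 23196 and 6670 CPM.

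The wound-linked and companion layer keratins were spread over several classes. Krt17 stood at 4145 CPM (3998 to 4296) in Slc39a8-led cells of FGF8 and 9419 CPM (9139.7 to 9704) in those of BSA. In basal epidermis-like cells it was 949 and 3210 CPM, and in the low-UMI cells 5965 and 778 CPM. A single FGF8 cell held 661 of the 876 Krt17 UMIs of the low-UMI cells. Krt75, the companion layer keratin, was 1158 and 2412 CPM in Slc39a8-led cells, from 9 of 55 and 8 of 28 cells. Krt16, a keratin of wounded epidermis, was highest in suprabasal epidermis-like cells, at 484 CPM (435 to 538) and 398 CPM (347 to 453). The lettered Krt6a, the usual type II partner of Krt16, had only 46 epithelial UMIs in FGF8 and 95 in BSA, and the near-identical Krt6b 73 and 14, a split between copies that the read assignment can blur.

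The inner root sheath keratins were spread over Crym-led, Slc39a8-led and suprabasal epidermis-like cells. Krt28 and Krt73 were highest in Crym-led cells: Krt28 stood at 7667 CPM (7220.0 to 8135) in FGF8 and 9646 CPM (9259.9 to 10043) in BSA, with UMIs in 14 of 14 and 12 of 12 cells. Krt73 was close to it at 7590.2 and 9670.3 CPM. Krt72 (189 and 311 CPM) and Krt26 (83.9 and 180.3 CPM) were much lower in the same cells. Krt71 and its partner Krt25 stood higher in Slc39a8-led than in Crym-led cells, with Krt25 at 6477 CPM (6292 to 6665) and 17554 CPM (17172 to 17942) and Krt71 at 4918 and 14230 CPM. Here too a few cells carried the BSA level, as 5 of 28 cells held 87.3% of the Krt25 and 95.3% of the Krt71 UMIs. Krt27 was found in both groups, at 1642 and 2913 CPM in Crym-led and 648 and 4405 CPM in Slc39a8-led cells, and in FGF8 it was highest in suprabasal epidermis-like cells, at 3110 CPM, with 784 CPM there in BSA.

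Of the hair and nail keratins, Krt35, an early keratin of the hair matrix and cortex, was the broadest. It stood at 10556 CPM (10331 to 10785) in nail and hair matrix-like cells of FGF8, in 29 of 35 cells, and at 6177 CPM (5911 to 6452) in BSA, in 17 of 19 cells. Krt32, a cuticle keratin, followed with 1680 CPM in 20 of 35 and 1281 CPM in 16 of 19 cells. Krt82, another cuticle keratin, was 931 CPM (865 to 1001) in 15 of 35 and 293 CPM (237 to 358) in 13 of 19 cells. Krt36, a nail and tongue keratin, was 240.1 and 311 CPM, and its intervals overlapped.

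The later cortex keratins came from far fewer cells. Krt31 was 3658 CPM in FGF8 and 6881 CPM in BSA, but from 10 of 35 and 2 of 19 cells, and 1 BSA cell held 2093 of its 2256 UMIs. Krt87 (1596 and 2269 CPM), Krt83 (1256 and 2312 CPM) and Krt81 (46.8 and 369 CPM) had UMIs in 2 of 19 BSA cells each. So Krt31, Krt81, Krt83 and Krt87 stood higher in BSA by a count of UMIs while their UMIs came from 6 to 13 of 35 cells in FGF8, and with 2 of 19 cells in BSA the shares cannot be told apart beyond counting error. The lettered neighbours Krt33a (2136 and 3837 CPM) and Krt33b (341 and 964 CPM) also stood higher in BSA with UMIs in 2 of 19 cells, and reads of these near-identical genes could be split between them. Krt34, Krt39, Krt40, Krt84 and Krt86 had 11 to 27 epithelial UMIs in FGF8 and 0 to 8 in BSA.

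Among the rest, Krt79, a keratin of the upper hair follicle and sebaceous duct, was highest in Serpina3j-led cells at 3941 CPM (3529 to 4388) and 2458 CPM (1606 to 3602), in 11 of 14 and 8 of 8 cells. Krt23 was highest in Slc39a8-led cells at 128 and 301 CPM. Krt80, which is known from many differentiating epithelia, was spread thinly, with 57.3 and 74.5 CPM in suprabasal epidermis-like and 22.2 and 135 CPM in Slc39a8-led cells. The simple epithelial keratins were low: over all epithelial cells Krt7 had 34 UMIs in FGF8 and 121 in BSA, Krt18 22 and 58, Krt8 8 and 66, and Krt19 7 and 13. Krt8 was found in 5 of 276 and 10 of 191 cells, and 33 of its 66 BSA UMIs lay in 1 cell. The other 7 members were too rare to compare: Krt42 had 8 epithelial UMIs over both libraries, Krt12 6, Krt24 4, Krt4 2, Krt222 1 and Krt13 and Krt20 0, and Krt90, just above the minimum, had 18.

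Genes whose levels ran together over the 14 points (7 sub-clusters in 2 libraries, log2 of CPM + 10) were mostly of a role. The Pearson correlation was 0.98 for Krt1 and Krt10, 0.99 for Krt31 and Krt87, 0.95 for Krt28 and Krt73, 0.95 for Krt25 and Krt27 and 0.85 for Krt5 and Krt15. These points share libraries, depth and cells and are few, so the values are a description.

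Single cells were led by few keratins. Of the cells with at least 10 keratin UMIs (225 in FGF8, 131 in BSA), the median cell had 45.5% and 52.1% of them from its leading keratin, and 4 and 3 keratins with at least 2 UMIs. In FGF8 Krt17 led 37 cells, Krt35 35, Krt14 29, Krt25 26, Krt73 24 and Krt10 23. In BSA Krt14 led 23, Krt17 18, Krt35 14, Krt73 14, Krt10 12 and Krt28 11. By role, inner root sheath keratins led the most cells in both, 74 of 225 (32.9%) and 41 of 131 (31.3%), and hair and nail keratins led 44 (19.6%) and 19 (14.5%).

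**Figure D3:**
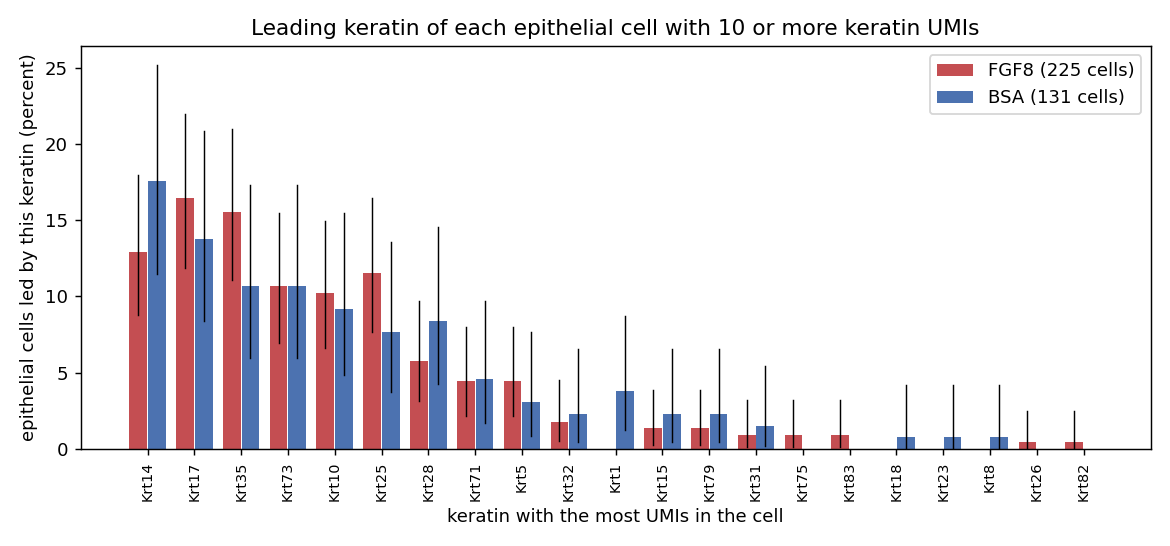
Percent of epithelial cells with at least 10 keratin UMIs (bars, starting at 0, with exact 95% binomial intervals as thin lines) in which each keratin had the most keratin UMIs, for 225 FGF8 and 131 BSA cells. Krt17 and Krt35 lead the most cells in FGF8 (16.4% and 15.6%) and Krt14 and Krt17 in BSA (17.6% and 13.7%), with overlapping intervals.

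The share of cells with both of a pair of partner keratins varied from pair to pair. Krt5 and Krt14 were both seen in 30.8% (25.4 to 36.6) of epithelial cells in FGF8 and 24.6% (18.7 to 31.3) in BSA, and within basal epidermis-like cells in 74.7% and 69.2%. After each cell was thinned to 2000 UMIs, which leaves out 53 and 75 shallower epithelial cells, the order turned over all epithelial cells (18.8% and 24.1%) and in basal epidermis-like cells the shares were 39.7% (28.8 to 51.5) and 90% (55.5 to 99.7). Krt1 and Krt10 were both seen in 17.0% (12.8 to 22) and 19.4% (14 to 25.7), and in 63.3% and 60.0% of suprabasal epidermis-like cells. Krt71 and Krt25 were both seen in 22.8% and 16.2%, and in 61.8% and 53.6% of Slc39a8-led cells. In the other cells of the tissue, Krt1 and Krt10 were both seen in 7.25% and 4.41%. After the same thinning, the share with Krt1 and Krt10 was 11.7% and 14.7% of epithelial cells and 0.65% and 0.50% of other cells. Krt14 and Krt10, which mark successive layers, were both seen in 19.9% and 17.8% of epithelial cells, and in 6.73% and 10.3% after thinning. Krt5 and Krt15 were both seen in 18.5% and 14.1% of epithelial cells, and in 10.8% and 14.7% after thinning. Krt75 and Krt17 were both seen in 14.1% and 5.24%, and in 6.28% and 6.03% after thinning. Krt2 and Krt10 were both seen in 3.62% and 2.62%. The remaining pairs rarely met: Krt6a and Krt16 were both seen in 5 FGF8 and 3 BSA epithelial cells, and Krt8 and Krt18 in 2 and 5. Krt6b and Krt17 were both seen in 1 and 2, although 118 and 62 cells had Krt17.

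The levels of FGF8 and BSA were then compared over all epithelial cells. A gene counts as past the fold when its log2 ratio (FGF8 over BSA) is above 1 or below −1 with at least 10 UMIs, a rule of size and not a test. Of 38 keratins with enough UMIs, 5 were past the fold higher in FGF8, against 10.6% of all 13401 genes so compared, and 15 were past it lower, against 5.28% of all genes. The median log2 ratio was −0.61 for the keratins and 0.14 for all genes. All keratin UMIs together gave a log2 ratio of −0.46 (−0.47 to −0.44). In female-called cells alone this ratio was 0.048, and with each sub-cluster weighted alike it was −0.051. Sex of cells, depth and the share of low-UMI cells differed between the libraries as given above, and their part in the result was not tested.

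The roles differed in how many members were past the fold each way. Of 13 hair and nail keratins, 5 were past the fold higher and 1 lower, with a median log2 ratio of 0.66 and 8 above 0 and 5 below (Krt31, Krt36, Krt81, Krt83 and Krt87), whereas of 7 inner root sheath keratins 0 were higher and 5 lower, with a median of −1.09. Of the 4 simple epithelial keratins compared, all 4 were lower (median −2.62), of 4 differentiation keratins 2, and of 3 basal and 3 wound-linked or companion layer keratins 0 were past the fold either way. The 5 highest with at least 50 UMIs were Krt82 (log2 ratio 1.93, 1.62 to 2.24), Krt35 (1.21, 1.14 to 1.28), Krt32 (0.66, 0.50 to 0.82), Krt79 (0.46, 0.28 to 0.65) and Krt36 (−0.08, −0.42 to 0.28). The other 3 past the fold upward were Krt39 (27 UMIs against 1), Krt86 (11 against 1) and Krt40 (17 against 0, a log2 ratio of at least 1.5 with a floor of 3 counts over the library). All 17 Krt40 UMIs came from 1 cell. Krt34 (19 UMIs against 8) and Krt84 (12 against 0), also above 0, were near the floor as well, so the median of this role leans on rare members. Outside the rule, the lettered hair keratins Krt33a (1713 against 1259 UMIs) and Krt33b (276 against 320) were lower in FGF8, at −0.56 and −1.22. Of the lettered wound-linked keratins, Krt6b stood at 1.38 and Krt6a at −2.05. Krt32 turned sign in 5 of 15 other settings (down to −5.14 in female-called cells) and Krt79 in 3 of 15 (down to −5.91), and Krt1 and Krt10, lower in FGF8 by the main rule, in 6 of 15 each (up to 2.58 and 3.41).

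The 5 lowest were Krt8 (−4.05, −5.32 to −2.99), Krt2 (−3.91, −4.27 to −3.57), Krt7 (−2.84, −3.43 to −2.28), Krt26 (−2.72, −3.70 to −1.83) and Krt72 (−2.54, −3.22 to −1.89). Most of these ratios rested on few cells, as 5 cells held 99.8% of the Krt2 UMIs in BSA and 90.8% of the Krt82 UMIs in FGF8. Krt35 turned to −1.11 in female-called cells alone, Krt82 turned to −1.67 without cells that carried markers of other cell types, and Krt72 and Krt26 turned to 1.29 and 1.04 when each cell counted alike. Krt28 (−1.23) and Krt73 (−1.09) rested on more cells, with the top 5 holding 24.6% and 20.7% of the UMIs in FGF8 and 42.1% and 38.9% in BSA. Both kept their sign under every setting tried, but shrank to as little as −0.29 and −0.11. In Slc39a8-led cells Krt28 stood at 2522 CPM in FGF8 and 3071 CPM in BSA, and Krt73 at 3208 and 3108 CPM. Crym-led cells, where both were highest, gave 143079 of 4200075 epithelial UMIs in FGF8 and 244047 of 2093025 in BSA. The part of this make-up in the ratios was not tested.

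**Figure D4:**
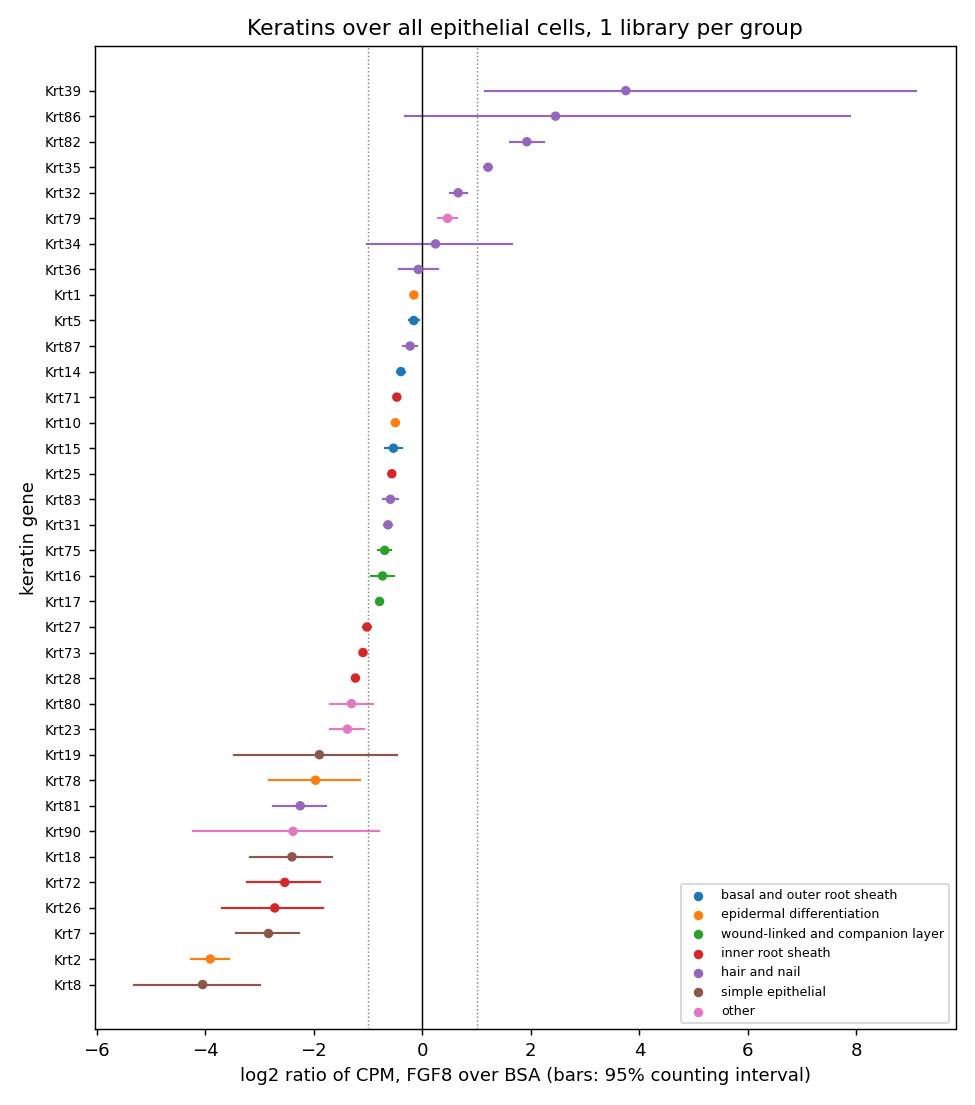
Log2 ratio (FGF8 over BSA, all epithelial cells) of each keratin compared that had UMIs in both libraries, with exact 95% counting intervals, coloured by role, and dotted lines at the 2-fold limits. Hair and nail keratins fill most of the upper end (Krt82 at 1.93, Krt35 at 1.21) and simple epithelial and inner root sheath keratins most of the lower end (Krt8 at −4.05).

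Lists of genes that work with keratins were compared by the same rule. Of 20 genes of the desmosome, hemidesmosome and linker proteins that anchor keratin filaments, 1 was past the fold higher in FGF8 (5%, against 10.6% of all genes). Lower were 3 (15%, against 5.28% of all genes), and the median was −0.41. Dsc2, a desmosomal cadherin, stood at 1.68, Dsc3 at 0.52 and Itga6 at 0.50, and the cytolinkers Ppl at −1.18, Evpl at −1.28 and Eppk1 at −1.39. Of 19 cornified envelope genes compared, 0 were higher and 12 lower (63.2%, against 5.28% of all genes), with a median of −1.71. Lor, the main protein of that envelope, had 473 UMIs in FGF8 and 4794 in BSA (−4.35), Flg, the filaggrin precursor, was at −4.83 and Hrnr at −6.42, while Dmkn (−0.34), Sprr1b (−0.52) and Tgm5 (−0.53) differed least. Only keratin ratios were tried under other settings, so how far these ratios rest on few cells is not known. Of 16 genes known from wound-activated keratinocytes, 7 were higher (43.8%) and 2 lower (12.5%), against the same shares of all genes, with a median of 0.53. The cytokine gene Il1b stood at 4.30, S100a9 at 3.36 and Cxcl1 at 2.6, against Sprr1b at −0.52, Ereg at −2.005 and Krt6a at −2.05. Il1b, S100a9 and Cxcl1 are also genes of neutrophils and macrophages, and the macrophage markers summed to 201 CPM in basal epidermis-like cells of FGF8, with UMIs of 7 of 7 markers, and 0 in those of BSA. Their part in the result was not tested.

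Keratin UMIs were also seen in cells that were not epithelial. RNA free in a cell suspension is known to give such UMIs, but how much of their level came from it was not tested. Of the other cells with Krt25, 87.4% in FGF8 and 88.4% in BSA held 1 UMI, while the highest cell held 102 and 124. For Krt71 the highest cell held 90 and 134 UMIs. The level in other cells is therefore given beside the shares above and not as a measured background. Over 6439 other cells in FGF8 and 3061 in BSA, keratins summed to 119 and 91.3 CPM, and by class from 52.5 CPM in osteoblast-like cells of BSA to 545 CPM in neutrophil-like cells of FGF8. Krt10 was seen in 41.4% (40.2 to 42.6) of other cells in FGF8 and 37.4% (35.7 to 39.1) in BSA, against 52.5% and 40.3% of epithelial cells, although its level was 38.8 and 33.8 CPM against 4981 and 7031 CPM. With each cell thinned to 2000 UMIs, the shares were 10.0% and 8.20% of other cells and 23.3% and 25.0% of epithelial cells. The next most counted were Krt1 (17.1% and 9.70% of other cells), Krt25 (14.2% and 6.21%), Krt71 (12.2% and 5.49%) and Krt17 (6.54% and 3.99%).

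The make-up of these UMIs differed from that of the epithelial cells of the same library. Krt10 gave 32.5% and 37.0% of the keratin UMIs of other cells against 20% and 20.6% in epithelial cells, while Krt35 gave 3.90% and 1.68% against 9.41% and 2.96%. Krt16 gave 2.19% and 4.38% against 0.396% and 0.480%, and chondrocyte-like cells held 166 of the 259 Krt16 UMIs of other cells in FGF8 and 190 of 209 in BSA, with 137 of the latter in 1 cell. Krt4, a keratin of moist lining epithelia, was the clearest member with a higher level outside the epithelial cells: mast cell-like cells of BSA held 47 of its UMIs, 131 CPM (96.0 to 174), in 17 of 45 cells, and those of FGF8 5 UMIs in 4 of 66 cells, against 1 UMI in the epithelial cells of each library. Krt90 had 31 UMIs in a single chondrocyte-like cell of BSA, and Krt13, Krt20 and Krt222 passed their epithelial level on 4 to 14 UMIs.

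**Figure D5:**
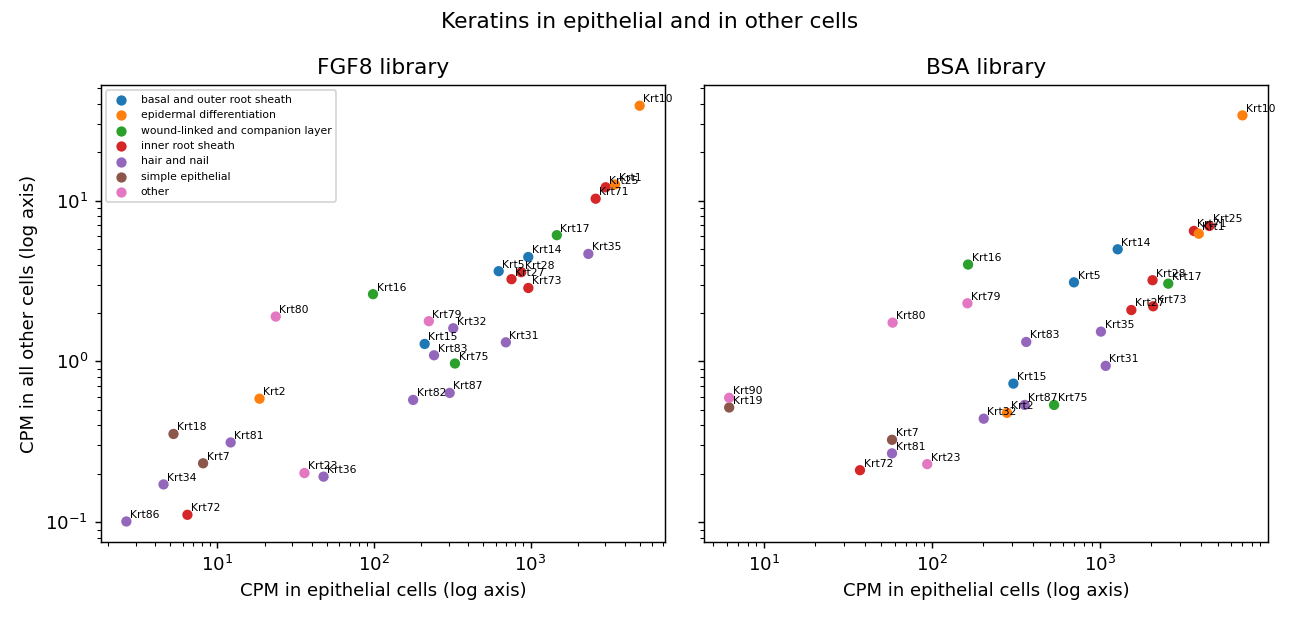
Level of each keratin with at least 10 UMIs in both kinds of cell, in epithelial cells (x axis) and in all other cells (y axis) of the FGF8 and BSA libraries, in CPM on log axes, coloured by role. Krt10 stands highest on both axes in both libraries (4981 against 38.8 CPM in FGF8), and Krt16 and Krt80 stand high in other cells for their epithelial level (98.6 against 2.62 CPM for Krt16 in FGF8).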

How the data were processed

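The data are 2 single-cell libraries (10x Genomics 3′ chemistry, v3.1). The deposited matrices hold raw UMI counts per gene and barcode, made by the authors with Cell Ranger 9.0.0; the submitters' notes also name Seurat and the builds GRCm39 and mm10, without saying which served the counting. Cells with over 200 and under 7500 genes and under 15% mitochondrial UMIs, the study's filter, were kept; no doublet caller was run, and cells with other types' markers were left out as an alternative. Cells were clustered (scanpy 1.11.5, 3000 variable genes less keratin, keratin-associated and sex-linked genes, 30 components, Leiden resolution 1, seed 42) and epithelial clusters again at 0.5. Names rest on marker lists, and where these tied on the mean fold.

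Counts were summed per class and library. With 1 library per group no p-value is given; the ratio code was tested on simulated data. Intervals are 95%. A gene at 0 entered ratios at 3 counts. Named are members with at least 100 epithelial UMIs, the 5 highest and 5 lowest ratios and, per linked list, the 3 highest and lowest among genes with at least 50 UMIs, and, in other cells, the 5 most counted and those above the epithelial level. The members and lists were chosen with earlier results of these data known, and the naming rules, roles, motifs and counts of leading keratins were set after the data had been seen. Gene models and sequences are from the GRCm39 reference (GENCODE); protein sequences were not used here.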

Additional observations from a re-analysis of the deposited data

Results flagged for a closer look

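Keratin signal was also present in barcodes that the cell filter left out. Barcodes with 7500 or more genes (274 in FGF8, 161 in BSA) held keratins at 1099.9 CPM (1086 to 1114) in FGF8 and 894 CPM (878 to 911) in BSA, above the 119 and 91.3 CPM of the non-epithelial cells that were kept, and 16.5% and 12.4% of all keratin UMIs of their libraries. The difference was not tested between animals, since each library is 1 pool. A few of these barcodes carried much of the signal, as only 5 in each library had over 1% of their UMIs from keratins. In FGF8 1 of them held 4425 of the 23297 keratin UMIs of this group, and in BSA 1 held 5906 of 10923. The lettered hair keratins, which the symbol rule left out, were found in nail and hair matrix-like cells: Krt33a at 2136 CPM in FGF8 and 3837 CPM in BSA, and Krt33b at 341 and 964 CPM, with UMIs of each in 2 of the 19 BSA cells.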

How the results depend on the processing

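With 1 library per group, leaving out a replicate was not possible, and intervals cover counting error only. No paired analysis was possible because each group is 1 library. The share of epithelial cells was 3.11% in FGF8 and 2.98% in BSA with all cells clustered at resolution 0.5, 3.13% and 2.98% at resolution 2, and 3.16% and 3.41% with cells called 1 by 1 by markers. The count of keratins past the fold higher in FGF8 (5) was 3 with cells called 1 by 1, 2 after thinning to 2000 UMIs, 2 with a minimum of 50 UMIs, 11 in male-called cells and 3 with each sub-cluster weighted alike, and the count lower (15) was 9 with that weighting. The log2 ratio of all keratin UMIs (−0.46) was −0.80 with cells called 1 by 1, −0.51 with keratins among the variable genes, −0.44 with the strict filter, −0.60 and −0.61 at resolutions 0.5 and 2, −0.21 with each cell counted alike, −0.29 thinned, −0.60 centred on all genes (a shift of 0.14), −0.47 without cells with other types' markers (46 and 102 cells left), −0.51 in male-called and 0.048 in female-called cells, −0.54 without the low-UMI cells and −0.051 with sub-clusters weighted alike. Among keratins past the fold, signs turned with each cell counted alike for Krt26 (1.04), Krt81 (3.46), Krt82 (−0.10), Krt72 (1.29) and Krt78 (0.42), after thinning for Krt26 (1.06), Krt82 (−0.69) and Krt72 (2.23), without cells with other types' markers for Krt82 (−1.67), in female-called cells for Krt27 (0.31), Krt35 (−1.11), Krt82 (−2.33) and Krt2 (3.17), and in male-called cells for Krt81 (0.14). Of those not past it, Krt1 and Krt10 turned sign in 6 of 15 settings each (up to 2.58 and 3.41), Krt5 and Krt32 in 5 (up to 1.35 and down to −5.14), Krt14, Krt31, Krt36, Krt71, Krt75, Krt79, Krt83 and Krt87 in 3, Krt25 in 2, and Krt15, Krt16 and Krt17 in 1. The cause was not tested. Krt7, Krt8, Krt18, Krt23, Krt28, Krt73 and Krt80 kept a lower level in FGF8 under every setting tried. The smallest difference over these settings ran from −1.99 for Krt8 to −0.29 for Krt28 and −0.11 for Krt73. The weighting of sub-clusters and the setting without low-UMI cells were chosen after seeing the data. The basal and suprabasal names were not stable. At finer clustering 73 of the 96 basal epidermis-like cells were called outer root sheath and bulge-like, with Krt14 at 521 and 1387 CPM in that group. Krt14 in the 16 and 5 cells then called basal was 8302 and 7055 CPM. The suprabasal name was given under none of the other clusterings, where 18 to 30 of its 45 cells were called granular and cornified epidermis-like.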

Other observations

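Of the barcodes left out by the filter, 14 in FGF8 and 7 in BSA had over 1% of their UMIs from keratins. In FGF8 the deepest of these were led by Krt10 (65.6% of 4425 keratin UMIs), Krt71 (43.6% of 4116) and Krt25 (32.8% of 3538), and in BSA by Krt10 (51.7% of 5906 and 55.4% of 1941). These barcodes entered no level or ratio given above.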
